A study of Arabidopsis thaliana with 4 samples.

Results

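Seed storage proteins are the nitrogen and sulfur reserve that an Arabidopsis embryo lays down before the seed dries. Cruciferins are legumin-type globulins, napins are small albumins, and vicilin-like proteins are a further class of globulins built on the cupin fold. All are made on the rough endoplasmic reticulum, packed into protein storage vacuoles and digested by the germinating seedling, and their transcripts are known to be abundant in the maturing and dry seed and to decline once germination proceeds.

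The genes described here are 7 storage protein genes, each measured by 1 of the 22746 probe sets of the array. CRA1 (AT5G44120), CRB (AT1G03880) and CRC (AT4G28520) are cruciferins, and SESA5 (AT5G54740) is a napin. These 4 were given by probe set, and their pairing with a gene comes from that definition and not from the platform annotation used here. The other 3, found through that annotation, were PAP85 (AT3G22640), a vicilin-like globulin, and the cupin genes AT2G28490 and AT1G03890. In the RefSeq gene order of assembly TAIR10.1, AT1G03890 and CRB are next to each other, and they are the only pair of the 7 that are direct neighbours. The genes were chosen because they were higher in the mutant on these same arrays, so their differences between the genotypes are given as a description, without a test.

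The samples were dark-grown Arabidopsis thaliana seedlings of the Columbia ecotype, either the phyA phyB double mutant with the alleles phyA-211 and phyB-9, or the wild type (WT). The mutant lacks phytochromes A and B, the principal red and far-red light receptors. Seeds of both genotypes were chilled for 5 days at 6 °C on 0.8% agar, given 1 h of white light at 22 °C and kept in darkness for 3 days before the seedlings were harvested. The design asks how the transcriptome of dark-grown seedlings differs without these receptors. Each genotype had 2 ATH1 arrays, and nothing in the labels says that the replicates came from separate cultures.

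Summed intensity ranged from 76027249.8 to 77974921 over the 4 arrays. Log2 values of the 13648 brighter probe sets, used for testing, correlated at 0.909 between the phyA phyB arrays and at 0.945 between the WT arrays. PhyA phyB array 1 stood apart, at 0.892 and 0.875 with WT arrays 1 and 2, against 0.942 and 0.93 for phyA phyB array 2. Values are therefore given for each mutant array. The annotation used here named 0 probe sets as PHYA or PHYB, but it did not list 8730 of the probe sets. The genotype labels were therefore not checked through the mutated genes. PORB, which makes a protochlorophyllide oxidoreductase, was bright on every array, at 100743 and 62061.5 in phyA phyB and 59614.5 and 63173.3 in WT. It was the 1 gene with a named probe set among the 5 listed as markers of etiolated seedlings, and the degree of etiolation was not tested.

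Every one of the 7 storage protein genes had higher intensities on both phyA phyB arrays than on both WT arrays. The median difference was 3.29 on the log2 scale, close to 10-fold, while the median over all tested probe sets was 0.00398. Both mutant arrays lay above both WT arrays for 20.1% of tested probe sets, at least 2-fold for 2.25% and at least 8-fold for 0.205%. Of the 7 genes, 7 reached 2-fold and 4 reached 8-fold. All shares of tested probe sets given here include the 7 genes themselves, which passed the filter. Since the genes were picked from this contrast, these shares are printed for scale and nothing is read from them. All differences are of log2(intensity + 70.1), which understates changes of dim probe sets. In RNA from seedlings, a change in the number of cells that hold these transcripts and a change in transcript per cell cannot be told apart.

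The 7 probe sets together made up 0.744% and 0.424% of the summed intensity on phyA phyB arrays 1 and 2. On WT arrays 1 and 2 they made up 0.0604% and 0.0671%. The mutant shares were thus several times the WT shares, and the arrays of the mutant differed from each other more than those of the WT. These sums are dominated by the brightest probe sets, CRA1 and CRC.

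**Figure D1:**
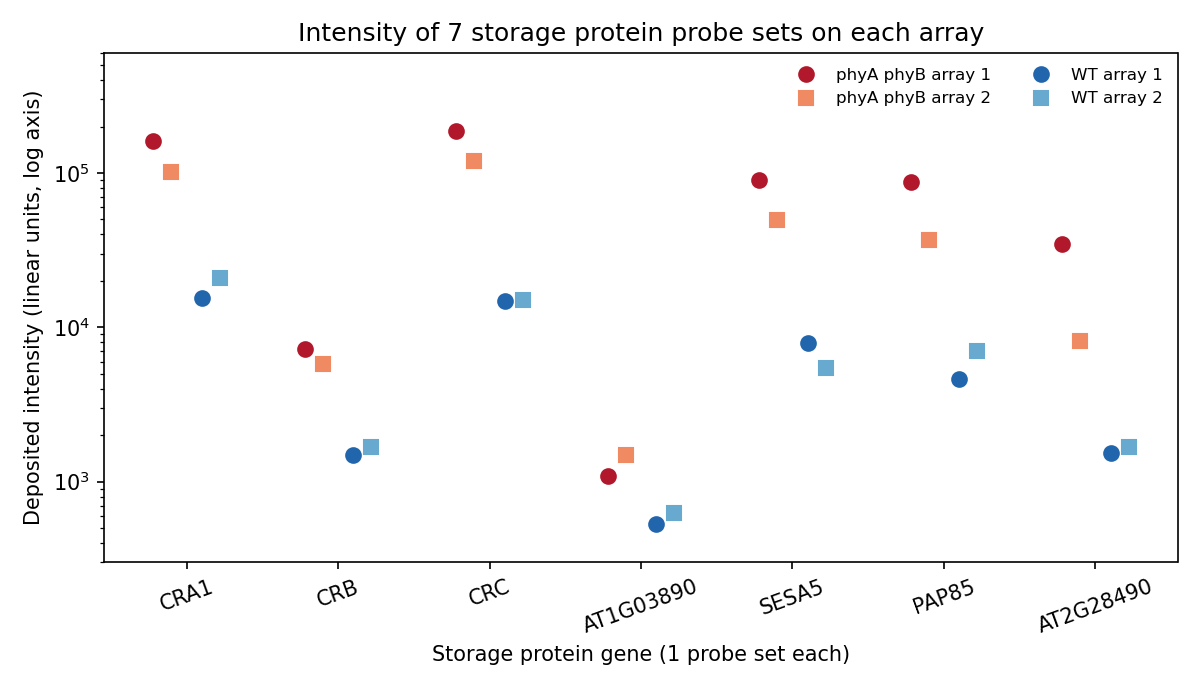
Deposited intensity (linear units, log axis) of the 7 storage protein probe sets on each of the 4 arrays, with phyA phyB arrays in red and orange left of the WT arrays in blue. Both mutant points lie above both WT points for every gene, and AT1G03890 is the gene with the higher mutant point on array 2.

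Among the cruciferins, CRC had intensities of 187286 and 119302 on phyA phyB arrays 1 and 2, against 14722.7 and 15013.8 on WT arrays 1 and 2. The WT arrays were nearly equal and the groups were far apart. Its log2 mean was 17.19 ± 0.46 in phyA phyB and 13.87 ± 0.02 in WT (SD, n = 2 each), a difference of 3.32. The highest intensity of any probe set on phyA phyB array 1 was 242403, above the value of CRC. Saturation of single probes was not tested.

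CRA1 reached 160755 and 101780 in phyA phyB, against 15460.2 and 20732.4 in WT. Its order among arrays was mutant 1, mutant 2, WT 2, WT 1, and the neighbours in that order within each genotype differed by less than the genotypes did. The log2 difference was 2.83, with 2.29 between the closest arrays of opposite genotype and 3.37 between the farthest.

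CRB had 7196.9 and 5751.5 in phyA phyB and 1497.5 and 1678.8 in WT. Both genotypes had close replicates here, with a log2 SD of 0.23 in the mutant and 0.11 in the WT. The difference was 1.97, smaller than that of CRA1 or CRC in all 4 pairs of opposite arrays, which ran from 1.73 to 2.21 for CRB and from 2.98 to 3.66 for CRC.

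AT1G03890, the cupin gene beside CRB, had the mean intensity nearest to the cutoff of the filter on low values. Its intensities were 1094.6 and 1486.5 in phyA phyB and 531 and 627.6 in WT. The groups did not overlap, but array 2 was the higher mutant array, the reverse of the other 6 genes. The log2 difference was 1.06, where array 1 of the mutant gave 0.85 and array 2 gave 1.27. The closest pair of opposite arrays differed by 0.74, less than the 0.94 that marks the 95th percentile of phyA phyB array 1 minus array 2 over all tested probe sets. For the other 6 genes even the closest pair exceeded that value. AT1G03890 and these 6 genes were picked because they were higher in the mutant on these same arrays. Both comparisons with 0.94 are therefore given for scale, and nothing is read from them. The mean intensity of AT1G03890 passed the filter cutoff of 656.85 through the mutant arrays, since its WT mean was 579.3. The other 6 genes had WT means above the cutoff.

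The napin gene SESA5 had 89704.3 and 49447.4 in phyA phyB and 7905.8 and 5490.8 in WT. It was the gene whose WT array 1 lay above WT array 2. Its log2 mean was 16.02 ± 0.61 in phyA phyB and 12.70 ± 0.37 in WT (SD, n = 2 each), and the difference was 3.32. That difference equalled the one of CRC to 2 decimals, although the replicates of SESA5 were farther apart in both genotypes.

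The vicilin-like gene PAP85 had 87430.4 and 36603 in phyA phyB and 4616.4 and 7060.7 in WT. Its replicates differed more than those of the cruciferins, 2.39-fold between the mutant arrays and 1.53-fold between the WT arrays. The lowest mutant array nevertheless stood 2.36 above the highest WT array on the log2 scale, and the highest mutant array stood 4.22 above the lowest WT array.

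The cupin gene AT2G28490 had 34587.4 and 8114.9 in phyA phyB and 1538.2 and 1685.1 in WT. The WT arrays were close, while mutant array 1 was 4.26 times mutant array 2. Its log2 mean was 14.04 ± 1.47 in phyA phyB and 10.71 ± 0.09 in WT (SD, n = 2 each). The mean difference of 3.33 averages 4.37 from mutant array 1 and 2.28 from array 2, so its similarity to the means of CRC and SESA5 does not hold on either array.

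The genes therefore varied in how far the mutant arrays lay apart. On the linear scale mutant array 1 over array 2 gave a ratio of 0.736 for AT1G03890, 1.25 for CRB, 1.57 for CRC and 1.58 for CRA1. The ratio was 1.81 for SESA5, 2.39 for PAP85 and 4.26 for AT2G28490. A single factor between the mutant arrays did not describe the 7 genes. CRB, AT1G03890, CRC and CRA1 lay at the even end, AT1G03890 in the reverse direction. PAP85 and AT2G28490 lay at the uneven end. Over all tested probe sets 90% lie between the 5th and 95th percentiles of this log2 difference, -0.96 and 0.94. PAP85 at 1.25 and AT2G28490 at 2.08 fell outside that range and the other 5 inside it.

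Intensity was higher on mutant array 1 than on array 2 for 6 of 7 storage genes, against 47.4% of tested probe sets. In the WT, array 2 was the higher one for 6 of 7, against 49.9% of tested probe sets. All 7 WT differences lay between the 5th and 95th percentiles of WT array 2 minus array 1 over tested probe sets, -0.72 and 0.81, and ran from -0.52 for SESA5 to 0.61 for PAP85.

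Leaving out phyA phyB array 1 gave a median difference of 2.50 over the 7 genes, and leaving out array 2 gave 3.65. On array 2 alone, CRC differed by 3.00, SESA5 by 2.89, PAP85 by 2.67, CRA1 by 2.50, AT2G28490 by 2.28, CRB by 1.81 and AT1G03890 by 1.27. On array 1 alone the order began with AT2G28490 at 4.37 and PAP85 at 3.92. The rank of AT2G28490 thus depended on the array, whereas CRB and AT1G03890 were the lowest on both.

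**Figure D2:**
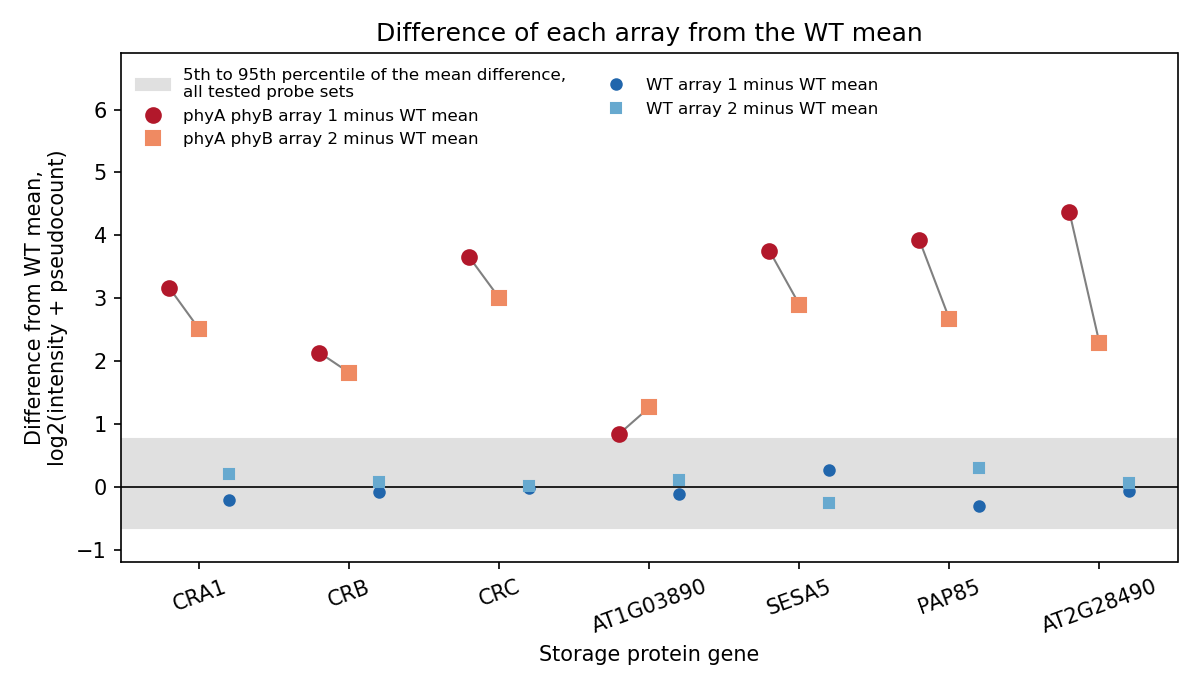
Difference of each array from the WT mean, in log2(intensity + pseudocount), for the 7 storage protein genes. Red circles and orange squares are phyA phyB arrays 1 and 2, blue points the WT arrays, and the grey band runs from -0.66 to 0.76, the 5th to 95th percentile of the mean difference over tested probe sets; the mutant arrays lie farthest apart for AT2G28490, at 4.37 and 2.28.

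Other genes that act with storage proteins were taken from lists that cover further cupins and albumins, oil bodies, regulators, protein processing and sorting, protein breakdown and oil use, the seed coat and endosperm, and etiolated seedlings. Of 78 listed genes, 25 had a named probe set and 21 of these passed the filter. None passed limma with Benjamini-Hochberg adjustment over all tested probe sets (0 of 21), where 0.0953% of probe sets passed in either direction. At an unadjusted p under 0.05 (limma), 5 of 21 were higher and 0 lower in phyA phyB. Of the 13648 tested probe sets, 988 reached that level in either direction, and 550 (4.03%) were higher. The lists were chosen with earlier results of these data known, so the shares in this paragraph are given for scale. The median difference of the 21 was 0.23. The groups did not overlap for 8 of the 21 with the mutant higher, against 20.1% of tested probe sets, and for 3 with the mutant lower, against 18.3%. Of the 21, AT4G36700, AT3G18570 and ALPHA-VPE had WT means below the filter cutoff, at 508.05, 470.4 and 573.35, and entered through the mutant arrays. All 3 are among the 8, and AT4G36700 is among the 5. Of the 18 others, 4 had an unadjusted p under 0.05 and 5 did not overlap, with the mutant higher in each. Without phyA phyB array 2 the number past the threshold was 8 of 21, against 2.91% of all tested probe sets, and without array 1 it was 1 of 21, against 0.271%, in fits where the lone mutant array is assumed to vary like the WT.

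Of the 4 further cupin genes with a named probe set, 2 were tested. AT4G36700, a vicilin-like cupin gene, had 2904.6 and 1718.4 in phyA phyB and 529.3 and 486.8 in WT. Both mutant arrays were well above the WT pair, and array 1 was the higher. The log2 difference was 2.00 (SE 0.39; adjusted p = 0.151, limma), so it did not pass. AT1G07750 had 8170.6 and 12253.2 in phyA phyB and 10435.6 and 10434.9 in WT, with the WT arrays between the mutant arrays, and differed by -0.06. The cupin genes AT2G18540 and AT2G28680 were too dim to be tested and had overlapping groups. Not all cupin genes measured here thus shared the pattern of PAP85.

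The oil body genes, whose oleosins coat the oil droplets stored beside the protein bodies, gave 4 tested genes and 0 past the threshold (limma; 1 at an unadjusted p under 0.05). The oleosin gene AT3G01570 had 64132.9 and 17028.5 in phyA phyB and 3873.1 and 4507 in WT, a difference of 2.96 (SE 0.49; adjusted p = 0.0842, limma). Array 1 lay 3.92 and array 2 lay 2.01 above the WT mean. AT3G18570 had 6468.2 on mutant array 1 but 512.6 on array 2, against 454.4 and 486.4 in WT. For that gene array 2 was close to the WT, which was not so for any of the 7 storage genes. AT2G25890 likewise differed by 1.72 on array 1 and by 0.15 on array 2, and OLEO3 differed by 0.23 in the mean.

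Among regulators of storage protein genes, 2 of 19 had a named probe set and both were tested, with 0 past the threshold (limma; 1 at an unadjusted p under 0.05). EEL, a bZIP factor of late embryogenesis, had 5301 and 2781.8 in phyA phyB and 1150.6 and 1436.6 in WT. Its difference was 1.53 (SE 0.33; adjusted p = 0.199, limma), with array 1 again the higher mutant array. BZIP53, which activates storage protein promoters together with other bZIP factors, had 5600.3 and 6201.7 in phyA phyB and 7470.7 and 7449 in WT. Its groups did not overlap in the other direction, with a difference of -0.34 (SE 0.22; adjusted p = 0.753, limma).

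Globulin precursors are cut by vacuolar processing enzymes (VPE), and aspartic proteases also act in the storage vacuole. Of 8 tested genes for processing and sorting, 0 passed the threshold (limma; 2 at an unadjusted p under 0.05), and their median difference was 0.27. BETA-VPE, the seed-type enzyme, had 15327.7 and 5730.4 in phyA phyB and 3853.1 and 4260.1 in WT. Array 2 lay above the WT by 0.49 only, array 1 by 1.90, and the mean difference was 1.20 (SE 0.40; adjusted p = 0.583, limma). GAMMA-VPE, the vegetative enzyme, had 11657.2 and 19817.9 in phyA phyB and 21489.2 and 17780.9 in WT, with overlapping groups and the lowest difference of the list, -0.36.

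Genes for protein breakdown and oil use, which a seedling runs after germination, gave 4 tested members with 0 past the threshold and 0 at an unadjusted p under 0.05 (limma). ICL, for isocitrate lyase of the glyoxylate cycle, had 132927 and 139802 in phyA phyB and 142038 and 138139 in WT. All 4 arrays were within a narrow range, and the difference was -0.04 (SE 0.17; adjusted p = 0.97, limma). AT4G16190, a papain-type cysteine protease gene, had 40761.9 and 75570.8 in phyA phyB and 75816 and 84185.2 in WT. The low value was that of mutant array 1, the array with the higher storage gene signal for 6 of 7 genes, and the difference was -0.52 (SE 0.28; adjusted p = 0.706, limma).

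The 2 seed coat markers measured here were dim. They were the genes with a named probe set among 8 listed for the seed coat and endosperm, and neither passed the filter. BAN, for anthocyanidin reductase of the seed coat, had 304.9 and 89.6 in phyA phyB and 44.2 and 118.1 in WT. AT3G50990, a peroxidase gene of mucilage cells, had 35.6 and 55.5 in phyA phyB and 97.7 and 173.5 in WT. The groups overlapped for BAN, while AT3G50990 was lower on both mutant arrays than on both WT arrays. Summed, the pair gave 340.5 and 145.1 in phyA phyB and 141.9 and 291.6 in WT, with overlapping groups. The other markers of this list were not analysed here, and the part of seed coat or ungerminated seed in the storage gene levels was not tested.

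**Figure D3:**
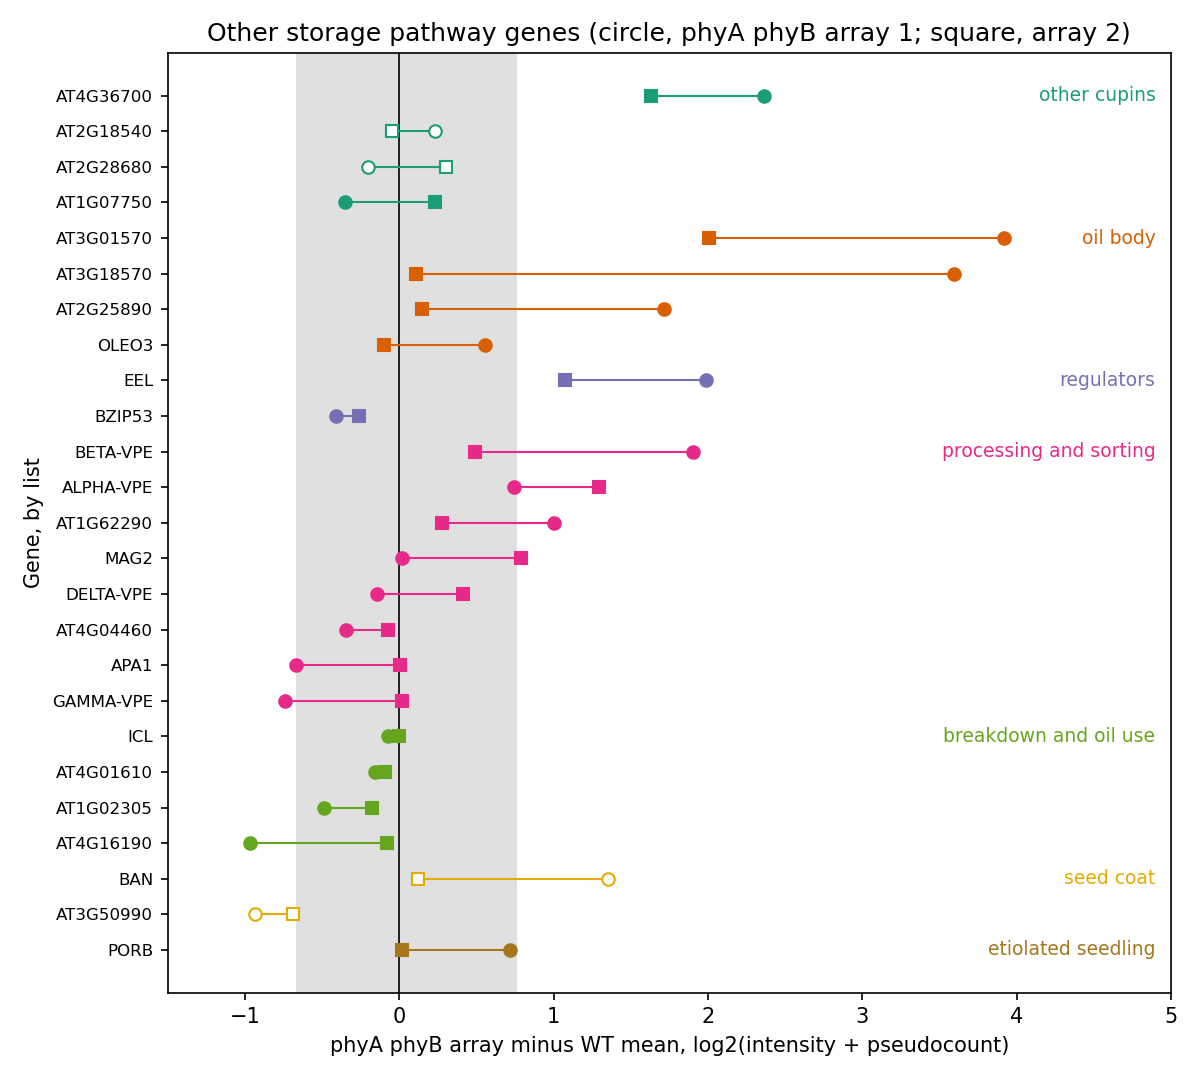
Difference of phyA phyB array 1 (circles) and array 2 (squares) from the WT mean, in log2(intensity + pseudocount), for the 25 other listed genes with a named probe set. Colours show the list, and open symbols, BAN among them, did not pass the filter. The grey band runs from -0.66 to 0.76, the 5th to 95th percentile of the mean difference over tested probe sets. It is drawn for scale only, since the points are single arrays. AT4G36700, AT3G01570 and EEL lie right of the band on both arrays. AT3G18570, AT2G25890, BETA-VPE, AT1G62290 and BAN do so on array 1 only, and ALPHA-VPE and MAG2 on array 2 only.

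Likeness to the storage genes was measured as the root mean square difference, over the 4 arrays, between a probe set's log2 values about their mean and the median profile of the 7 genes. The closest of the named probe sets that passed the filter was AT3G54940 at 0.193, followed by AT5G04010 at 0.234 and AT2G45460 at 0.241. LEA (AT2G21490), a dehydrin gene of the late embryogenesis abundant class, was next at 0.284. AT1G65090 at 0.324, AT3G01570 at 0.334, AT1G27461 at 0.339 and AT1G54870 at 0.343 completed the 8.

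AT3G54940 had 41348 and 18799.6 in phyA phyB and 4276.6 and 4412.6 in WT. AT2G45460 had 1888.1 and 952.8 in phyA phyB and 52.8 and 169 in WT, where 1 of the WT values was below the pseudocount. AT5G04010 was also dim in WT, at 93.8 and 166.9, against 1749.7 and 709.1 in phyA phyB. LEA had 24332.9 and 9252.2 in phyA phyB and 2478 and 2058.6 in WT. AT5G04010 and AT2G45460 passed the filter through the mutant arrays, with WT means of 130.35 and 110.9. The order of the arrays in these 8 genes follows from how they were chosen. With 4 arrays the ranking is loose, as leaving out 1 array left between 2 and 4 of the 8 among the closest: 4 without phyA phyB array 1, 3 without phyA phyB array 2, 2 without WT array 1 and 4 without WT array 2.

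**Figure D4:**
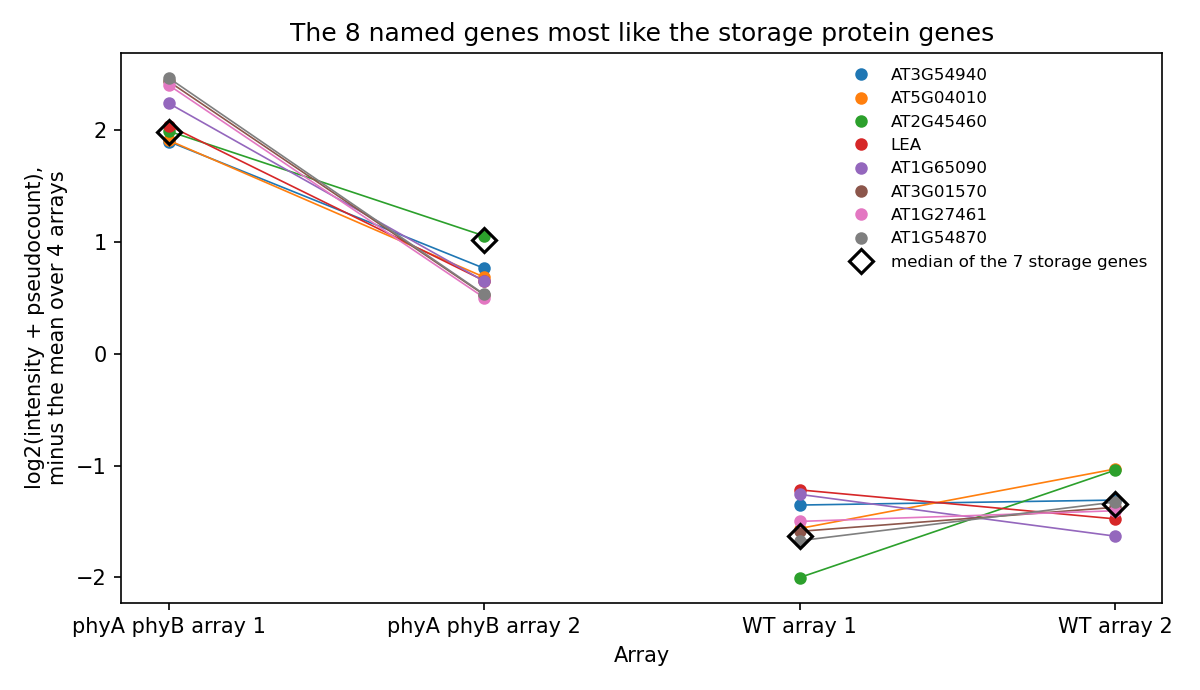
Log2(intensity + pseudocount) minus its mean over the 4 arrays for the 8 named genes closest in pattern to the storage protein genes, with the median of the 7 storage genes as open diamonds. The diamonds stand at 1.99 and 1.02 on phyA phyB arrays 1 and 2 and at -1.63 and -1.34 on WT arrays 1 and 2, and most of the 8 genes lie below the diamond on phyA phyB array 2.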

How the data were processed

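Transcript levels were measured in RNA of phyA phyB and WT seedlings, 2 ATH1 arrays each. Per the labels' protocols, an RNeasy kit was used for extraction and the labelling followed Affymetrix instructions. The deposited values are 1 linear intensity per probe set and array. The sources used here give neither the software nor the scaling target. Trimmed means (2% off each end) of the arrays differed by 0.0946%, so the authors had scaled them, and this scaling was kept.

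Intensities were transformed as log2(intensity + 70.1), the pseudocount being the 10th percentile of all values. Of the probe sets, the 60% with the highest mean intensity (13648) were tested with limma 3.58.1 (R 4.3.3; lmFit, eBayes with an intensity trend) and Benjamini-Hochberg adjustment at 0.05. The procedure was tested on simulated data. P-values cover the spread between these arrays alone, which may be technical, and precision is limited by the number of arrays. An exact permutation test was not used, since 2 arrays against 2 cannot reach 0.05. The label of WT array 1 gives no replicate number, so it was numbered in accession order.

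Gene names came from the platform annotation, updated through RefSeq. Of the probe sets, 13513 had 1 gene, 503 several and 8730 were not listed; RefSeq matched 13436. The 7 genes and all lists were chosen with earlier results of these data known. Genes named were the 7, the 8 most like them, and from each list those past the threshold or else the highest and lowest, with others added after their values were seen. How far a cruciferin's probes also take up RNA of a related gene was not tested. Promoter and protein sequences were not used here, so the planned motif search was not run. Figures were drawn with matplotlib 3.10.9. Alternatives were other normalizations, pseudocounts, filters, variance models and thresholds, and each array left out.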

Additional observations from a re-analysis of the deposited data

How the results depend on the processing

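The 35 values of the 7 storage genes under quantile, median and cyclic loess normalization, no pseudocount and the pseudocount at the 25th percentile kept their direction and moved by less than the SD between replicates. With 2 arrays a group, leaving 1 out cannot move a difference by more than that SD, so those values are given as ranges only: 2.28 to 4.37 for AT2G28490, the widest, and 1.81 to 2.13 for CRB, the narrowest. The median difference ran from 2.50 to 3.65 with arrays left out. The 13 probe sets past the threshold became 3 without a filter, 0 by eBayes without the trend (limma; 928 at an unadjusted p under 0.05), 33 at an adjusted p of 0.10, and 10 to 397 with arrays left out; the cause was not tested. The 0 pathway genes became 1 at an adjusted p of 0.10, AT3G01570. With an array left out its group keeps a lone array. The counts given above for the pathway genes without a phyA phyB array are therefore for scale, and nothing is read from them. Of the 8 most similar genes, 2 to 4 stayed with arrays left out. No paired analysis was possible because the labels of the groups share 1 replicate number only. The search for promoter motifs and its alternatives was not run. The files give no background level, which limits what dim probe sets such as AT1G03890 show.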
